A study of Mus musculus with 2 samples.

Results

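The genes described here are those of the cytosolic ribosomal proteins, the proteins that together with ribosomal RNA make up the ribosomes of the cytoplasm. They were chosen by symbol: protein-coding mouse genes named Rpl or Rps with a number and optional letters, together with Rplp0 to Rplp2 and Rpsa. Kinases of the Rps6k family, names that mark pseudogenes and the mitochondrial Mrpl and Mrps genes were left out. RefSeq holds 84 such genes, and 82 of them were among the 15605 genes listed in the deposited files. The RNA came from peritoneal macrophages, the phagocytes of the abdominal cavity, of C57BL/6 mice aged 6 to 8 weeks. Of the libraries, 1 came from wild type mice and 1 from Lgmn-/- mice, and both kinds of macrophage shared a 4 day culture with EO771, a mammary carcinoma line from mice. How many mice gave cells, and whether a membrane kept the macrophages apart from the carcinoma cells, is not stated in the labels. Lgmn encodes legumain, a lysosomal protease that cleaves after asparagine, and the comparison asks how transcripts differ with its loss. Lgmn itself had 23550 estimated counts in wild type and 426 in knockout, 64.3-fold fewer after scaling. They are counts over all exons, and the deleted exons are not named in the labels.

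Ribosomal protein mRNAs are among the most abundant transcripts of growing and resting cells, and their proteins are needed in near-equal numbers because each ribosome holds a single copy of nearly all of them. In vertebrates these mRNAs begin with a cytidine followed by an unbroken run of pyrimidines, the 5′ terminal oligopyrimidine or TOP motif, through which LARP1 and the kinase complex mTORC1 set how strongly they are translated and how long they are kept. Macrophages adjust this pathway with growth factors, nutrients and activation.

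With 1 library per genotype no difference has a replicate check, so no p-value was computed. Ratios below are knockout over wild type, from counts scaled between the libraries with the TMM method, which assumes that most genes do not differ. Their 95% intervals are exact and cover counting error only. A gene counted as tested when the higher library held at least 50 estimated counts, which was true of 79 ribosomal protein genes and of 9498 genes in all. Of the tested members, 48 encode proteins of the large subunit and 31 of the small subunit. In bulk RNA, fewer cells of a type and less RNA per cell cannot be told apart.

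The start of the mRNA is where the TOP motif would lie, so the first 25 bases of transcripts were read from GENCODE vM21 (GRCm38) for 78 tested members. The annotated first base was C, with at least 4 pyrimidines after it, in 8 of 78 ribosomal protein genes (10.3%). The share was 5.13% among 78 mitochondrial ribosomal protein genes and 2.24% among 9351 other tested genes. These are annotated starts and were not measured in the macrophages, and a motif is missed where the annotated start differs from the one used. Of the 8 genes, 7 are shown in order of the length of the opening pyrimidine run, which is in capitals, followed by the members with the lowest and the highest ratio among those with an annotated start.
Rps24, chr14:24490718-24490742, plus strand: CTCTTTTCCTCCTCTCCagctccgg
Rpl32, chr6:115808723-115808747, minus strand: CTTCCTTCTTCCTCggcgctgccta
Rpl4, chr9:64173375-64173399, plus strand: CTTTTCCTgtgggagcagccgggta
Rpl37, chr15:5116645-5116669, plus strand: CTCTTCCggtctctttggcctcgcc
Rps21, chr2:180257377-180257401, plus strand: CCCTCCTgcccaatagtgctgcgga
Rpl36, chr17:56613416-56613440, plus strand: CTTCCTgtcccggccgccatcggag
Rpl37a, chr1:72711290-72711314, plus strand: CTCTTCggacttgggcttgggttcc
Rpl31, chr1:39367842-39367866, plus strand: CCTCgcctccccgtgacccggaagt
Rplp2, chr7:141447370-141447394, plus strand: gggagctgtggagccgagtagcatg

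The run covered 17 bases in Rps24 and 14 in Rpl32, and 6 to 8 bases in the next 5 shown. It covered 4 bases in Rpl31. The annotated Rplp2 transcript begins with a purine. That transcript has 964 bases where the deposited length is 441, so its start may not be that of the counted transcript. Starting the search anywhere in the first 10 bases, a run of at least 7 pyrimidines was found in 16 of 78 ribosomal protein genes (20.5%), against 3.85% of mitochondrial ribosomal protein genes and 7.72% of other tested genes. Beside these shares, the ratios of genes with and without a run are given as a description. The 8 genes with the opening run had a median log2 ratio of -0.44, and the other 70 had one of -0.47. The 16 genes with a run of 7 had a median of -0.46, and the other 62 one of -0.48.

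**Figure D1:**
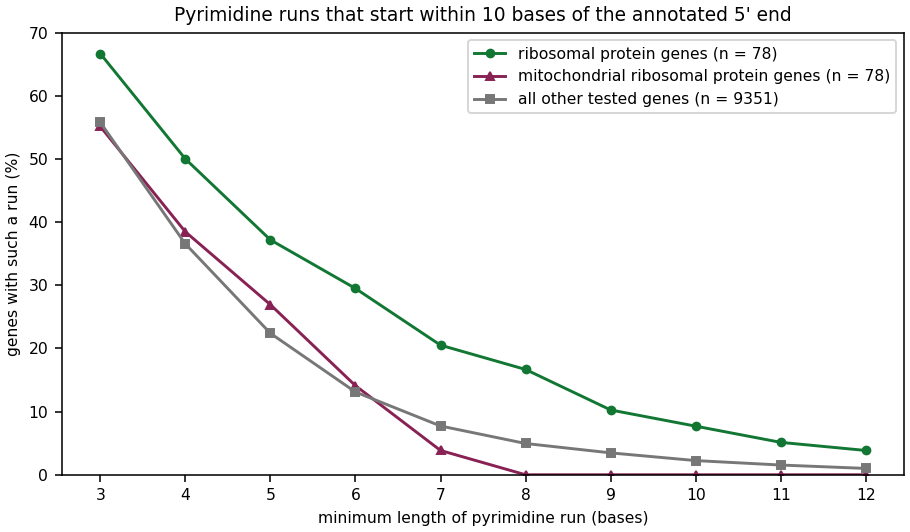
Share of genes (y axis, percent) whose annotated 5′ end holds a pyrimidine run of at least the length on the x axis (bases), starting within the first 10 bases. Each point is the share in 1 group of genes. Ribosomal protein genes lie above both other groups at every length drawn, with 20.5% against 7.72% of other tested genes at 7 bases.

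Promoters, taken from RefSeq (GRCm38.p6) as 250 bases before to 50 after a gene's start, were available for 64 of the 84 genes, in 76 windows. The word CCGGAAG, which ETS family factors such as GABPA bind, was present on either strand in 34.2% of these windows and in 8.86% of all 32851 windows. AAGATGGC, the core of the YY1 motif, was in 9.21% against 2.75%, and the palindromic NRF1 motif in 2.63% against 0.971%. GGGCGG, the word of the SP family, was in 56.6% against 35.7%. TATAAA, the TATA box, was in 9.21% against 13.6%. No word contains another, matches of different words may overlap, and a match is a description of the sequence. Stretches of 120 bases upstream of Rps7 and Rpl37 are shown because they hold the ETS word and touch no annotated exon. Capitals mark CCGGAAG, which reads CTTCCGG where it lies on the other strand, and GGGCGG.
Rps7, chr12:28635954-28636073, minus strand: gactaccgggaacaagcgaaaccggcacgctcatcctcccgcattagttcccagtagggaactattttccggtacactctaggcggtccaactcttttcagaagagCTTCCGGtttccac
Rpl37, chr15:5116493-5116612, plus strand: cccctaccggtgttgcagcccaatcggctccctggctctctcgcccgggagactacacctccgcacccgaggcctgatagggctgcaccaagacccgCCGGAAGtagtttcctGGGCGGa

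The ribosomal protein mRNAs made up 9.87% of all estimated counts in the wild type library, with an interval of 9.85% to 9.89%. In the knockout library they made up 8.38%, with an interval of 8.37% to 8.40%. On the scale of FPKM, which divides by transcript length and is the scale on which levels of different genes are compared, their share was 18.8% in wild type and 17.1% in knockout. Among the 100 genes of highest FPKM, 47 in wild type and 42 in knockout were ribosomal protein genes. Leaving paralogues aside, the 76 tested genes of the canonical ribosome had a median FPKM of 1646 in wild type and 1440 in knockout. The median over all tested genes was 6.82 and 8.36 (FPKM). The middle 50% of the canonical genes lay between 1293 and 2414 in wild type, and between 1091 and 2143 in knockout (FPKM).

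Rpl41, which encodes the smallest ribosomal protein from a coding region of 75 bases, had the highest FPKM in both libraries, 7629 in wild type and 6212 in knockout. Rps27, a zinc finger protein of the small subunit, followed with 4253 and 3709. Rplp1, of the acidic stalk, had 4214 and 3629. These were the same 3 genes in the same order in both libraries, and Rps12, a protein of the small subunit's beak, came next at 4106 and 3370. The fifth place was held by Rpl23a, the docking site of the signal recognition particle, in wild type (3513, against 2966 in knockout) and by Rps29, a protein of the small subunit's head, in knockout (3063, against 3304 in wild type).

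Rps15a had the lowest FPKM of the canonical genes, 96.9 in wild type and 87.6 in knockout. The deposited transcript length of this gene is 5158 bases, while its coding region is 390 bases, and FPKM divides by the former. Rps20 (3446 bases deposited, 357 coding) and Rpl22 (2203 deposited, 384 coding) were also near the bottom, at 358 and 267 for Rps20 and 194 and 166 for Rpl22 (FPKM). The order of the canonical genes was close to the same in both libraries. Pearson's r of log2 FPKM was 0.994 and Spearman's rho 0.978 across the 76 genes, which share library and transcript length and are not independent replicates. Of them, 68 moved by at most 5 places and 2 by more than 10. Rplp2 went from place 60 to place 35, and Rps9 from 54 to 36.

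**Figure D2:**
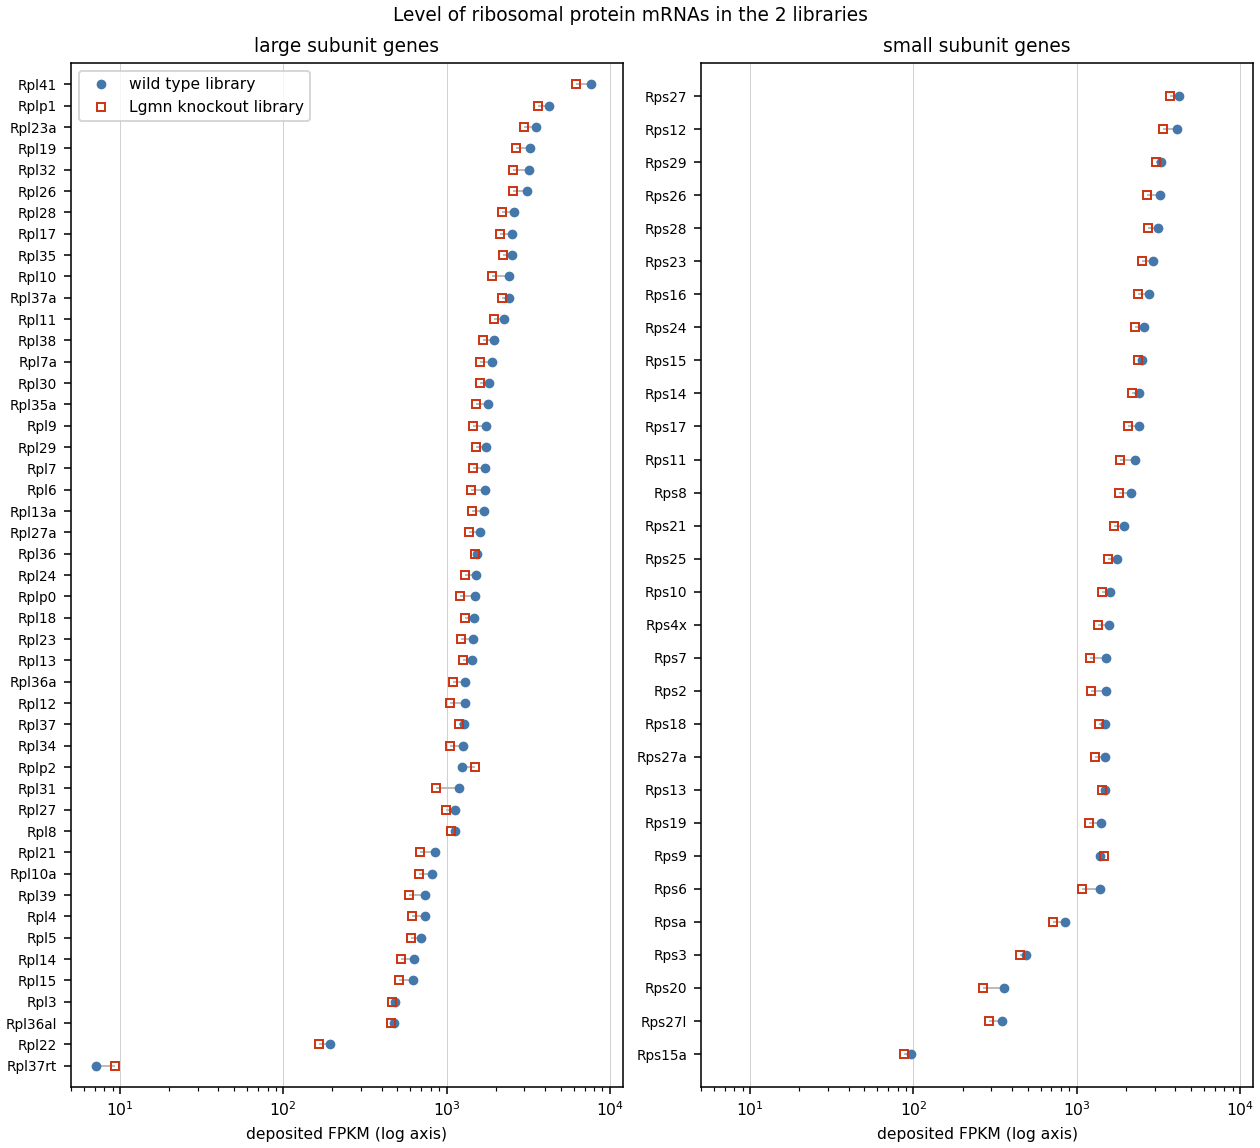
FPKM (x axis, log scale) of 77 of the 79 tested ribosomal protein genes (y axis) in the wild type library (filled circles) and the Lgmn knockout library (open squares), with large subunit genes on the left and small subunit genes on the right, ordered by the wild type level. Nearly all squares lie to the left of their circles, with Rplp2, Rps9 and Rpl37rt as the 3 exceptions.

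Summed over all members, the log2 ratio of the scaled counts was -0.47, or 1.39-fold lower in the knockout library. The median over the 79 tested genes was also -0.47, or 1.38-fold lower, and the ratios ran from -0.71 to 0.14. The log2 ratio was below 0 for 77 of 79 members, where 50% of all tested genes were below 0 (median -0.00). Scaling by library totals put the median of all tested genes at 0.24, and FPKM put it at 0.23. Relative to that median the members' median was -0.47 and -0.46, and 76 of 79 members were below 0 under either scale. No member reached 2-fold: 0 were higher by 2-fold or more, against 6.05% of all tested genes, and 0 were lower by as much, against 1.74%. At least 1.5-fold lower were 4 of 79 members, against 6.39% of all tested genes. The members lay close together. Their SD was 0.12 on the log2 scale against 0.60 over all tested genes, and 76 of 79 fell within 0.25 of their median, where 39.3% of all tested genes fell within 0.25 of theirs.

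The members are abundant, so other abundant genes were set beside them. Among genes with at least 2000 counts in the higher library, 78 members had a median log2 ratio of -0.47 and an SD of 0.10, while 804 other genes had a median of -0.29 and an SD of 0.49. Of these other abundant genes, 78.0% were below 0. Large subunit genes had a median of -0.49 with 46 of 48 below 0, and small subunit genes one of -0.46 with 31 of 31 below 0. With a trend on transcript length subtracted, 40 of 48 large and 21 of 31 small subunit genes were below 0. For most members the ratio differed from that of the sum by more than counting error: the interval of the gene's ratio held the ratio of the summed counts for 31 members, lay above it for 26 and below it for 22. How far single genes vary between mice or library preparations was not measured.

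**Figure D3:**
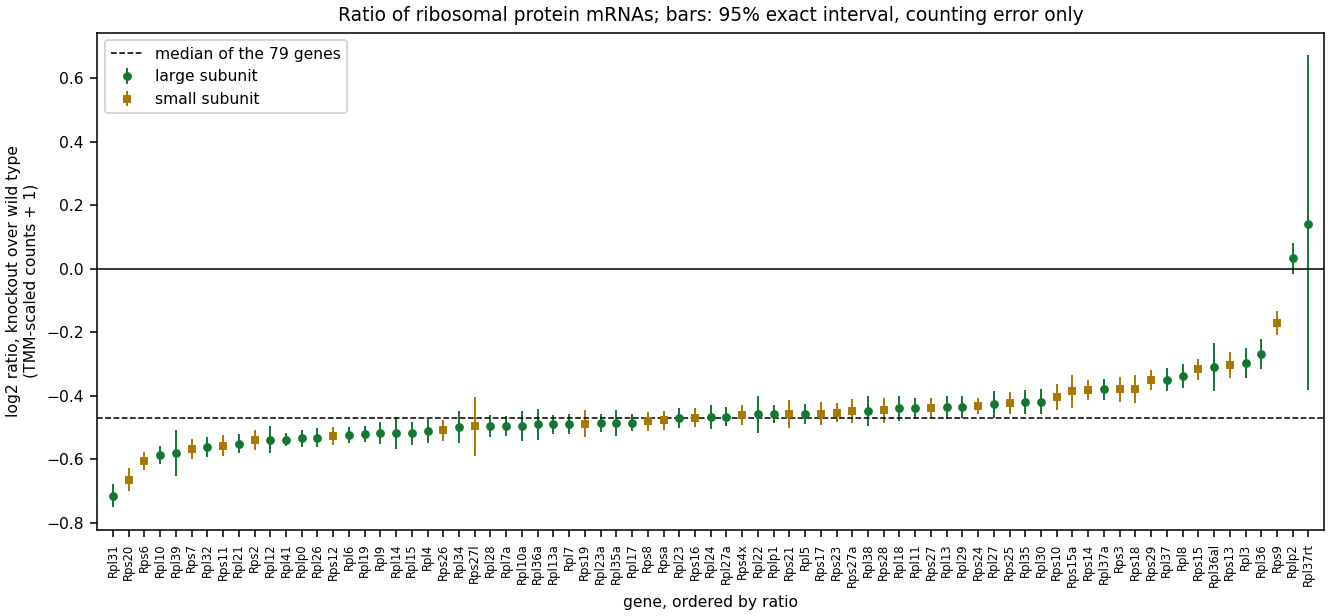
Log2 ratio of knockout over wild type (y axis) for 77 of the 79 tested ribosomal protein genes, ordered by ratio (x axis), with circles for large and squares for small subunit genes and bars for the 95% exact interval of counting error. The dashed line marks the median of all 79, -0.47. Rpl31 lies lowest at -0.71, and Rplp2 and Rpl37rt are the 2 above 0, joined by Rps9 when library totals or FPKM set the scale.

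The acidic stalk of the large subunit, which recruits elongation factors to the ribosome, held the canonical gene whose ratio lay furthest from the median. Rplp0, the base of the stalk, had 24005 counts in wild type and 19328 in knockout (log2 ratio -0.53). Rplp1 had 22239 and 18884 counts (-0.46), and Rpl12, which sits beside Rplp0, had 9606 and 7713 (-0.54). Rplp2, the partner of Rplp1 in the stalk's dimers, had 6115 counts in wild type and 7288 in knockout, a log2 ratio of 0.03 with an interval of -0.02 to 0.08. Of the canonical genes, Rplp2 was the 1 whose interval did not lie below 1-fold. The FPKM of Rplp1 was 3.41 times that of Rplp2 in wild type and 2.43 times in knockout. A similar copy of Rplp2, Rplp2-ps1, held 56.8 and 33.3 counts, and adding them left the ratio at 0.03.

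Rpl5 and Rpl11 carry the 5S rRNA into the large subunit and can bind the p53 regulator Mdm2 when ribosome assembly is disturbed. Rpl5 had 17112 counts in wild type and 14538 in knockout, and Rpl11 had 15301 and 13149. Their log2 ratios of -0.46 and -0.44 differed by less than the width of their intervals. Around the peptidyl transferase centre, where peptide bonds are made, the 3 genes covered a wider range. Rpl10, which completes that centre late in assembly, had 22468 and 17448 counts (-0.59), while Rpl3 had 7804 and 7403 (-0.30) and Rpl8 had 11410 and 10521 (-0.34). The interval of Rpl10, -0.61 to -0.56, did not overlap those of Rpl3, -0.34 to -0.25, and Rpl8, -0.38 to -0.30.

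Of the 8 proteins that line or surround the exit of the nascent chain tunnel, all 8 genes were below 0, with a median of -0.52. Of all tested members, 77 of 79 were below 0. With a trend on transcript length subtracted, 7 of 8 were below 0, against 61 of 79 members. Rpl31, at the rim of the exit, had 14857 counts in wild type and 10558 in knockout, and FPKM values of 1198 and 862. It was the lowest member at -0.71 (interval -0.75 to -0.68), or 1.64-fold lower. Its copy Rpl31-ps12 held 11417 and 8421 counts, so the division of reads between these copies is uncertain. The sum of both copies had a log2 ratio of -0.69. Rpl39, which lines the narrow end of the tunnel, had 3608 and 2815 counts (-0.58). Rpl26 had 20158 and 16253 (-0.53), Rpl19 had 28628 and 23258 (-0.52) and Rpl4, which reaches into the tunnel, had 12543 and 10258 (-0.51). Rpl23a (-0.49), Rpl17 (-0.48) and Rpl35 (-0.42) closed the list.

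In the small subunit, 31 of 31 genes were below 0, and 21 of 31 once a trend on transcript length was subtracted. Those for proteins at the mRNA entry and the decoding site had a median log2 ratio of -0.42. All 6 of these were below 0, and 4 of 6 once a trend on transcript length was subtracted. Rps2, which forms part of the entry channel, had 17782 counts in wild type and 14274 in knockout (-0.54), and its neighbour Rps3, a protein with further roles in DNA repair, had 11081 and 9933 (-0.38). Rps23, at the decoding centre itself, had 19066 and 16227 (-0.45). The remaining 3 genes of that list, whose proteins reach the decoding site with their tails, were Rps16 (-0.47), Rps18 (-0.38) and Rps15 (-0.32). Rps9, which borders the entry channel beside Rps2 and Rps3, had more counts in knockout, 11726, than in wild type, 11329. Its log2 ratio was -0.17 after TMM scaling (interval -0.21 to -0.13), and 0.07 when scaled by library totals or taken from FPKM, so its direction depends on the scaling. It was also above 0 once a trend on transcript length (0.20) or coding length (0.05) was subtracted.

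At the exit of the mRNA channel the median was -0.48, with 5 of 5 genes below 0, and 3 of 5 with the length trend subtracted. Rps26, which contacts the mRNA upstream of the start codon, had 16601 counts in wild type and 13600 in knockout (-0.51). Rpsa, also known as the laminin receptor, had 18884 and 15810 (-0.48). Rps28 (-0.45) and Rps14 (-0.38) were nearer to 0. The beak of the small subunit, a protrusion completed late in assembly, was covered by Rps12 with 25034 and 20258 counts (-0.53), Rps27a, made as a fusion with ubiquitin, with 12635 and 10791 (-0.45), and Rps10 with 10433 and 9200 (-0.40).

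Rps6, the substrate of the S6 kinases downstream of mTORC1, had 22909 counts in wild type and 17542 in knockout, and FPKM values of 1380 and 1071. Its ratio was 1.52-fold lower with an interval of 1.49 to 1.55, the third lowest of all members. Rps20, a protein of the small subunit's head, had 14942 and 10992 counts and was 1.58-fold lower. With Rpl31 and Rpl10 these are the 4 genes at or past 1.5-fold. At the other end of the list, next to Rplp2, Rpl37rt and Rps9, stood Rpl36, with 7258 and 7022 counts (-0.27), and Rpl3. These 2 are proteins of the large subunit, and their ratio intervals lay below 1-fold.

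Heterozygous loss of certain ribosomal protein genes causes Diamond-Blackfan anaemia in humans, a failure of red cell production. The mouse counterparts of 19 such genes were tested, and 19 of 19 were below 0, against 77 of 79 of all tested members. Their median was -0.45, with a range of -0.71 (Rpl31) to -0.35 (Rps29). With the length trend subtracted, 14 of 19 were below 0, against 61 of 79 members, and their median was -0.065. Of the members with known roles outside the ribosome, 5 of 5 were below 0 with a median of -0.46, and 5 of 5 with the length trend subtracted. Among them Rpl13a, which leaves the ribosome in interferon-treated myeloid cells to repress translation of inflammatory mRNAs, had 20884 counts in wild type and 17336 in knockout (-0.49).

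Paralogues, copies that can replace a canonical protein or serve other cell types, had lower levels than the canonical gene they were paired with here. Rps27l, a copy of Rps27 that p53 induces, had an FPKM of 350 in wild type and 292 in knockout (log2 ratio -0.50), and Rpl36al, a copy of Rpl36a, had 476 and 454 (-0.31). The FPKM of Rps27 was 12.2 times that of Rps27l in wild type and 12.7 times in knockout, while that of Rpl36a was 2.74 and 2.42 times that of Rpl36al. Rpl37rt, a retrotransposed copy of Rpl37, had 55.8 and 72.4 counts, so its ratio of 0.14 had an interval of -0.38 to 0.67. Of the members below 50 counts, Rpl3l, a copy made in muscle, had 30 and 36 counts, and Rpl39l, a copy made in testis, had 15 in wild type and 2 in knockout. Rpl32l held 1.78 estimated counts in knockout and was not listed in wild type, and Rpl10l and Rps27rt were listed in neither file.

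Paralogues that the symbol rule leaves out were Rpl22l1 and Rpl7l1, with Rps4l, which RefSeq annotates as a transcribed pseudogene. Rpl22l1, a copy of Rpl22 that takes part in lymphocyte development, had 204 counts in wild type and 136 in knockout, a log2 ratio of -0.80 with an interval of -1.13 to -0.49. Rpl7l1 had 979 and 1010 counts (-0.18), and Rps4l had 107 and 159 (0.35, interval -0.01 to 0.72). Ribosomal proteins whose symbols do not follow the rule had ratios in the range of the members. Fau, made as a fusion with a ubiquitin-like protein, had 24119 and 21271 counts (-0.40), Rack1, a scaffold on the small subunit, had 14630 and 11656 (-0.55), and Rps3a1 had 17481 and 14457 (-0.49).

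Similar copies elsewhere in the genome can take reads from these genes, and RSEM, which the processing notes name, gives such reads to genes by an estimate. Counts were whole numbers in both libraries for 58 of the tested members, whose median was -0.47 with a range of -0.61 to -0.17. The 21 members with decimal estimates, for which reads may have been shared, also had a median of -0.47. The lowest and the highest ratios, those of Rpl31, Rps20, Rplp2 and Rpl37rt, belong to this second group. Adding the counts of listed copies moved the ratio by at most 0.04, for Rps15a, from -0.39 to -0.43.

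Transcript length moved with the ratio across the whole data set. Spearman's rho between deposited length and log2 ratio was 0.61 across the 9498 tested genes, so short transcripts tended to lower values in the knockout library. The members were short, with a median of 703 bases against 2744 for all tested genes. Among genes under 1000 bases, 60 members had a median log2 ratio of -0.46, and 732 other genes had one of -0.37 with 87.8% below 0. Within the members themselves rho was -0.24, so the longer ones were not higher.

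Compared with other genes of their own length, the short members were close to them and the long ones were lower. Between 300 and 500 bases the median was -0.46 for 16 members and -0.41 for 61 other genes, and between 500 and 700 bases it was -0.46 for 22 members and -0.41 for 195 others. Between 700 and 1000 bases, 22 members had a median of -0.47 against -0.34 for 474 others. The gap was wider above that: -0.52 for 11 members against -0.27 for 1037 others between 1000 and 1500 bases, and -0.47 for 6 members against -0.12 for 3457 others between 1500 and 3000 bases. The 2 members above 3000 bases, Rps20 and Rps15a, had a median of -0.53 where 3275 other genes had one of 0.25.

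After a smooth trend of the log2 ratio on log2 length was subtracted over all tested genes, the members' median was -0.089 and 61 of 79 were below 0, against 51.1% of all tested genes. Deposited lengths of several members were far above their coding regions: 1871 bases with 480 coding for Rpl21, and 1857 with 612 for Rpl15, besides Rps15a, Rps20 and Rpl22 above. With the trend taken on coding length instead, which was annotated for 97.6% of tested genes, the median was -0.20 and 74 of 78 were below 0, against 52.1%. Rplp2 was above 0 in both cases, at 0.48 and 0.33. The cause of the length trend, and its part in the members' ratio beyond these values, was not tested.

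**Figure D4:**
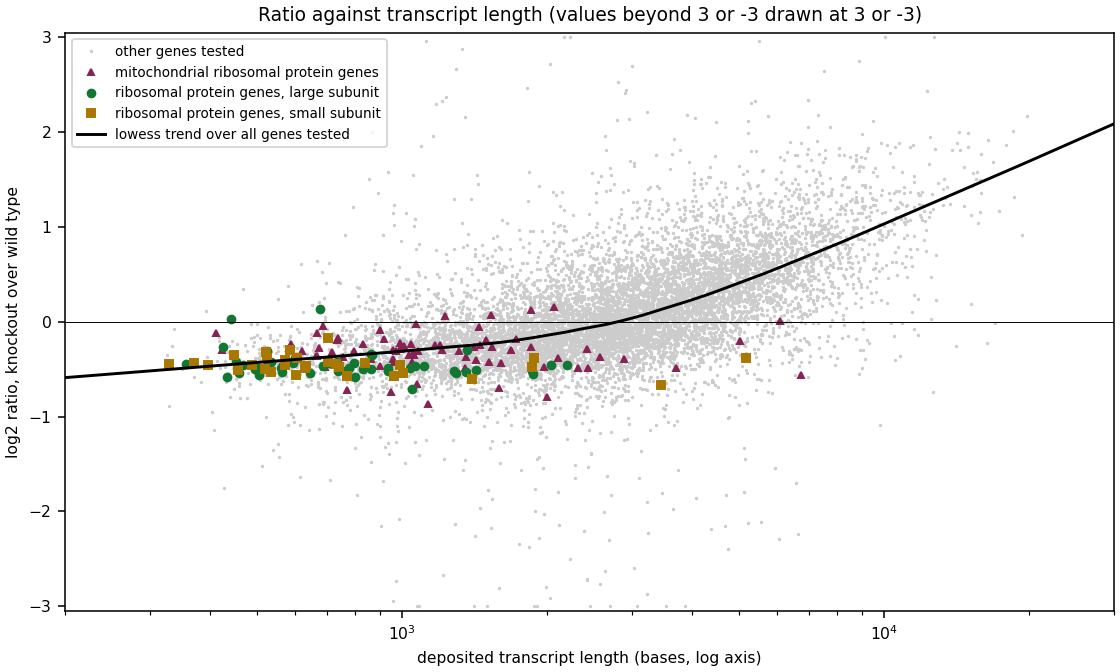
Log2 ratio of knockout over wild type (y axis) against deposited transcript length (x axis, bases, log scale) for all tested genes, with values beyond 3 or -3 drawn at those limits. The black line is the lowess trend over all tested genes. Large (circles) and small (squares) subunit genes lie on both sides of the line below 1000 bases, with Rpl37rt and Rplp2 highest above it, and under the line beyond that length, and mitochondrial ribosomal protein genes (triangles) scatter around it.

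The mitochondrial ribosome is also built from proteins encoded in the nucleus, and its genes have short transcripts, with a median of 1057 bases. Their median log2 ratio was -0.31 over 78 genes, with 73 below 0 (57 under library totals or FPKM) and 0 at least 2-fold higher or lower, and their ratios ran from -0.86 (Mrpl16) to 0.16 (Mrps2). With the length trend subtracted the median was -0.022. In 6 of 6 length ranges from 300 to 6000 bases, the median of the cytosolic ribosomal protein genes was below that of the mitochondrial ones. The longest range held 2 genes of each kind, and the shortest held 3 mitochondrial ones. These ranges do not match abundance: the median wild type FPKM was 37.7 for the mitochondrial genes and 1590 for the tested cytosolic ones.

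Other genes of protein synthesis were read from lists. Of 21 translation genes whose mRNAs are known to carry a TOP motif, 19 were below 0 (15 under library totals or FPKM) and 0 passed 2-fold, with a median of -0.44. That median was -0.21 by totals, -0.19 by FPKM and -0.23 with the length trend subtracted. Tpt1, a growth-related TOP mRNA, had 75477 counts in wild type and 52010 in knockout (-0.76), and Naca, which shields nascent chains, had 8576 and 6418 (-0.64). At the other end, Pabpc1, the cytoplasmic poly(A)-binding protein, had 2534 and 4275 counts (0.53), and Eif3f, a subunit of initiation factor eIF3, had 1387 and 1785 (0.14). The list includes Fau and Rack1, given above.

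Of the translation initiation factors, 21 of 30 were below 0 (17 under library totals or FPKM), with a median of -0.33. That median was -0.089 by totals, -0.10 by FPKM and -0.21 with the length trend subtracted. Eif4e, which binds the mRNA cap, had 2122 and 1342 counts (-0.88), and Eif2s2, a subunit of the factor that brings the initiator tRNA, had 1904 and 1428 (-0.64). Only Eif4g3, a scaffold of the cap-binding complex, passed 2-fold, with 110 counts in wild type and 357 in knockout (1.47). Its relative Eif4g1 had 612 and 956 (0.42). These scaffolds have deposited transcripts of 6175 (Eif4g3) and 5451 bases (Eif4g1), and that of Eif4e has 4999 bases. With the length trend subtracted, Eif4g3 was at 0.88 and no longer past 2-fold, and Eif4g1 was at -0.06. Eif4e was then at -1.29, past 2-fold lower, so which factor passed 2-fold depended on this setting.

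The median of genes that build ribosomes was nearer to 0. Of 48 tested assembly factors, 27 were below 0, with a median of -0.05 that turned to 0.19 under library totals or FPKM. Their median length was 2453.5 bases. With the length trend subtracted their median was -0.0089, against -0.089 for the ribosomal protein genes, and 25 of 48 were below 0. Heatr1, needed for transcription and early processing of pre-rRNA, was the only assembly factor past 2-fold, with 57 counts in wild type and 143 in knockout (1.09). Its transcript has 6776 bases, and its ratio was 0.42 with the length trend subtracted. Nol6, of the small subunit processome, had 63 and 117 (0.66). Gnl3, a nucleolar GTPase, had 274 and 220 (-0.54), and Sbds, which helps release the anti-association factor from the large subunit, had 965 and 803 (-0.49). For the machinery of RNA polymerase I, which makes the large rRNA precursor, the median over 17 genes was -0.29, with 10 below 0 (9 under library totals or FPKM). That median was -0.051 by totals, -0.049 by FPKM and -0.019 with the length trend subtracted. Polr1a, its largest subunit, was the 1 of 17 at least 2-fold higher, against 6.05% of all tested genes, with 63 and 168 counts (1.18). Taf1c, of its selectivity factor, had 28 and 66 (0.99). Taf1b had 178 and 131 (-0.66) and Polr1d 1542 and 1230 (-0.55).

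Genes of mTORC1 and the control of ribosomal protein mRNAs had a median log2 ratio of 0.32, with 3 of 16 below 0 (2 under library totals or FPKM). That median was 0.56 by totals and 0.54 by FPKM. Tsc2, a brake on mTORC1, was the 1 of 16 at least 2-fold higher, against 6.05% of all tested genes. It had 79 counts in wild type and 200 in knockout (1.11). Larp1, which binds the TOP motif, had 307 and 698 counts (0.96). Rheb, the activator of mTORC1, had 1487 and 1242 (-0.48), and Eif4ebp1, a repressor of cap-dependent translation, had 4494 and 4260 (-0.30). The transcripts of this list were long, with a median of 4335 bases. Its median after subtraction of the length trend was 0.06, with 6 of 16 below 0. Myc, a transcription factor that drives ribosomal protein genes, had 48 and 33 counts and was below the minimum.

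**Figure D5:**
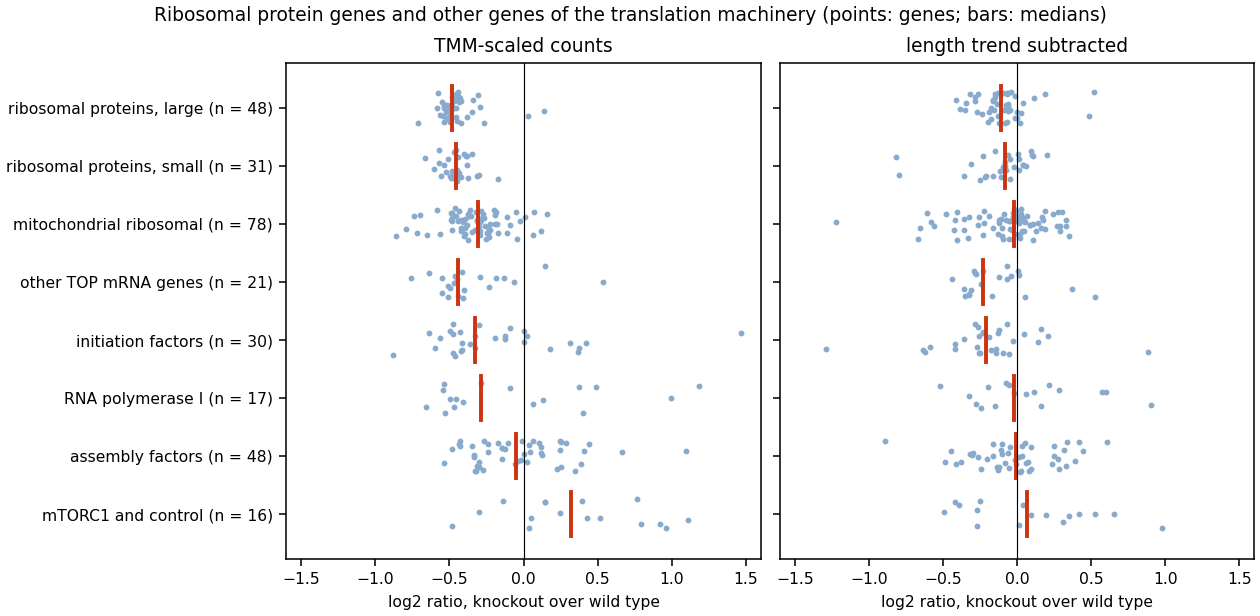
Log2 ratio of knockout over wild type (x axis) for the ribosomal protein genes of each subunit and for 6 other lists of the translation machinery (y axis), from TMM-scaled counts on the left and with the length trend subtracted on the right. Points are genes, spread vertically for visibility, and red bars are medians. On the left the medians run from -0.49 for large subunit genes to 0.32 for the mTORC1 list, and on the right from -0.23 for the other TOP mRNA genes to 0.06.

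Both libraries were of like depth, with 11885784 estimated counts over 14681 listed genes in wild type and 11740202 over 14756 in knockout. Of all tested genes, 575 were higher and 165 lower in knockout by 2-fold or more. Scaled by library totals the split was 1036 and 107, and by FPKM 936 and 102. Macrophage markers were measured in both libraries, with 15 of 15 listed, 273143 summed counts in wild type and 252356 in knockout. Their median log2 ratio was 0.10 over 12 tested, with a range of -0.70 to 1.23. Of these 12, 6 were below 0 and 2 were at least 2-fold higher in knockout, against 6.05% of all tested genes. Markers of this cell type thus went in both directions. Cd68, a lysosomal marker of macrophages, had 77259 and 55334 counts, while Gata6, the transcription factor of large peritoneal macrophages, had 23 and 28. Summed counts of the markers of each other cell type were smaller than those of the macrophage markers, and their direction differed between types. Over 6 tested fibroblast markers the median log2 ratio was -1.85, with 5 below 0. Over 8 tested T and NK cell markers it was 0.68, with 0 below 0. Summed counts of 10 fibroblast markers were 1149 and 508, and those of 15 T and NK cell markers were 2094 and 3982. Epithelial carcinoma markers, 6 of 10 listed, summed to 26 and 30 counts, with Epcam at 1 and 2. B cell markers summed to 23 and 41, dendritic cell markers to 26 and 113, mesothelial markers to 95 and 7, and neutrophil markers to 4063 and 3346. The part of other cell types in the ribosomal protein ratios was not tested.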

How the data were processed

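Libraries of macrophage RNA were read on a BGISEQ-500 instrument, as the labels' protocols state, for 1 wild type and 1 Lgmn-/- sample grouped by genotype. The authors deposited, per the file headers, an estimated count and an FPKM value for every listed Entrez gene. The submitters' processing notes name HISAT2, Bowtie2, RSEM and mm10, with no roles. The deposited FPKM followed from the count, the deposited length less 36.5 bases and a total of 12229131 (wild type) or 12060163 (knockout), to within 0.044%. Genes absent from a file were taken as 0 counts there. Whether counting used strand is not stated, so reads of overlapping and antisense genes may be mixed.

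Members and lists were chosen with earlier results of these data known. RefSeq symbols (GRCm38.p6) matched 15561 of 15605 gene identifiers. Estimated counts were rounded and scaled with TMM in edgeR 4.0.16 (R 4.3.3), with factors of 0.921 for wild type and 1.09 for knockout. Ratios were taken after adding 1 scaled count, for genes that reached 50 estimated counts in either library, and 2-fold was the threshold. The 95% intervals were computed from the knockout share of a gene's counts (exact, Clopper-Pearson), from reads without molecular identifiers, so they cover counting error only. Named genes are all members of the role lists, the 5 with the highest and the 5 with the lowest FPKM, and the 5 highest and 5 lowest ratios. Of the lists of protein synthesis genes, those past 2-fold and the 2 highest and 2 lowest are named. Cell type markers are given mostly as sums. Rps9's place beside Rps2, and the remaining members named, were written after their values were seen. Some genes that the rule takes are counted but not reported here by name.

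Alternatives were DESeq2 1.42.0 size factors, library totals, TMM without the members, FPKM with 0.1 added, pseudocounts of 0.5 and 5, count minimums of 10, 200 or none, a threshold of 1.5-fold, genes listed in both files, centring on genes in the members' length range, and a lowess length trend (span 0.3). The coding length trend and counts summed over similar copies were added after seeing the data. On simulated counts with 200 genes changed 3-fold, all 100 raised and 100 lowered genes passed 2-fold and 0 of 9100 unchanged genes did. The changed genes were drawn from genes outside the members with at least 100 expected counts. Those counts held counting error only and no length trend, so the simulation checks the calculation and nothing about the real libraries. Python 3.11.15 was used with scipy 1.17.1, numpy 2.4.6, statsmodels 0.14.6, pandas 2.3.3 and matplotlib 3.10.9.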

Additional observations from a re-analysis of the deposited data

How the results depend on the processing

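No paired analysis was possible because each genotype has 1 library, and for the same reason no library could be left out. The median log2 ratio of the ribosomal protein genes stayed below 0 under every alternative run. It was -0.23 by library totals and -0.23 by FPKM, -0.45 with TMM factors computed without the members, -0.40 after centring on other genes in their length range, -0.089 with the length trend subtracted and -0.20 with the coding length trend subtracted. The ratio of their summed counts was -0.24 by totals, -0.46 without the members, -0.40 after centring and -0.13 with the length trend subtracted. The number below 0 ranged from 61 of 79 with the length trend subtracted to 78 of 82 with no count minimum. In single genes, the sign changed for Rps9 by totals or FPKM, for 16 members with the length trend and for 3 with the coding length trend subtracted. The number at least 2-fold lower went from 0 to 1 at a minimum of 10 counts or none (Rpl39l) and to 4 at 1.5-fold, and the number at least 2-fold higher from 0 to 1 with no minimum (Rpl32l). The median of the mitochondrial ribosomal protein genes, -0.31, was -0.070 by totals and -0.073 by FPKM, -0.33 at a minimum of 200, -0.24 after centring, -0.022 with the length trend and -0.12 with the coding length trend subtracted. Over all tested genes, 575 higher and 165 lower became 1036 and 107 by totals, 936 and 102 by FPKM, 921 and 436 at a minimum of 10, 273 and 67 at 200, 1458 and 1533 with none, and 1562 and 607 at 1.5-fold. The number higher was 203 with the length trend and 226 with the coding length trend subtracted. The members' median stayed at -0.47 and 77 of 79 stayed below 0 with DESeq2 size factors, either pseudocount, genes listed in both files or summed copies. Over all tested genes the numbers were 577 and 164 with DESeq2 size factors, 587 and 165 at a pseudocount of 0.5, 525 and 150 at 5, and 574 and 164 for genes listed in both files. Totals differ from TMM by a constant shift, and the trends remove what goes with length. The cause of the length trend was not tested. At the depth of these libraries counting error is small for the members, while the spread between mice is unknown.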
